A study of Arabidopsis thaliana with 16 samples.

Results

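SAG29 (AT5G13170, also called SWEET15) and SWEET10 (AT5G50790) are genes of the SWEET family of Arabidopsis thaliana, which has 17 loci. Each was represented by 1 probe set, so the 2 genes stand for 2 of the 13286 loci that the array's probe set names cover singly. They were chosen by a measured value: both were among the largest called differences over both days with the inducer (limma, Benjamini-Hochberg threshold 0.05) of named genes higher in all 6 pairs of arrays. That change is therefore described here without a test, and it supports nothing further.

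SWEET proteins are membrane carriers that let sugars pass down their gradient in either direction. Members of the clade that holds SAG29 and SWEET10 move mainly sucrose across the plasma membrane, and relatives in it release sucrose from leaf cells for loading into the phloem. SAG29 is known as a gene of senescing leaves, of the seed coat and of salt stress, and SWEET10 as a target of the flowering signal FT in the vasculature. The TOR kinase, the silenced gene of the study, is a central regulator that ties growth to sugar and other nutrients.

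RNA of Col-0 seedlings was measured on 16 arrays, each with a single colour. Lines 17, 9 and 20 (amiR-tor) held an artificial microRNA against TOR that estradiol switches on, and the control plants held only the vector, pER8. Seedlings 2 weeks old were moved to MS plates with 20 µM estradiol (induced) or without it (non-induced) and harvested after 6 or 3 days. The groups were induced amiR-tor at 6 days, induced amiR-tor at 3 days, non-induced amiR-tor at 6 days and non-induced amiR-tor at 3 days, with 1 array from each of the 3 lines, and then 1 empty-vector array for each of the 4 matching conditions. All plants had been germinated on hygromycin in continuous light, and every plant held the inducible vector. The grouping rests on the sample titles, because the series title names another gene and the descriptions of all samples speak of the empty vector. The names used here list no probe set for TOR (AT1G50030), so the extent of its silencing in each line was not analysed here. Whether samples came from separate cultures is not said in the labels, and the spread behind the p-values is that between lines or, in the tests of line differences, between the days within a line; either may in part be technical.

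Values are log2 expression as the authors deposited it, and they run from a floor of 2.12 to 15.32. A log2 value under 4 is called dim. The 25S ribosomal RNA control read 5.27 to 6.66 on 6 arrays and 11.38 to 11.99 on the other 10, and the 5′ minus 3′ actin control was -10.39 to -4.47 on those 6 arrays and -1.92 to -1.43 on the 10. The low 25S kind held the induced line 9 arrays of both days and, from lines 17 and 20, every array harvested at 3 days. In line 9 the change with the inducer and the change in the kind of array cannot be told apart. Each pair of lines 17 and 20, and each empty-vector pair, lay within 1 kind. As tissue checks, the root gene PYK10 read 13.08 to 13.70 on the 16 arrays, and FD, a partner of FT at the shoot apex, lay at the floor of 2.12 on all of them.

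SAG29 was higher with the inducer than without it in each amiR-tor line at each day, and highest in induced line 17. With the inducer for 6 days it read 9.89 in line 17, 8.79 in line 9 and 7.06 in line 20, and without it 4.76 in line 17, 4.71 in line 9 and 5.47 in line 20. With the inducer for 3 days it read 9.96 in line 17, 6.64 in line 9 and 6.80 in line 20, and without it 4.72 in line 17, 4.79 in line 9 and 5.82 in line 20. The lowest induced array of the lines, 6.64, lay above their highest non-induced array, 5.82, so the treatments did not overlap. Of all 13701 probe sets above the filter on dim values, 2.34% had all 6 induced arrays of the lines above all 6 non-induced ones; since SAG29 was picked on this contrast, nothing is read from that share.

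In the fit over all 16 arrays, SAG29 was higher by 3.60 ± 0.87 (SE, log2) in induced than in non-induced amiR-tor seedlings at 6 days, by 2.69 ± 0.87 at 3 days and by 3.15 ± 0.62 over both days, the last an 8.85-fold difference. The group means were 8.58 ± 1.43 (SD, n = 3) with the inducer and 4.98 ± 0.43 without it at 6 days, and 7.80 ± 1.87 with it and 5.11 ± 0.62 without it at 3 days. Bulk RNA cannot tell more RNA per cell from more cells of a kind that makes it.

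SWEET10 had smaller differences from lower levels. After 6 days it read 6.63 in line 17, 5.75 in line 9 and 4.74 in line 20 with the inducer, and 3.57 in line 17, 3.50 in line 9 and 4.65 in line 20 without it. After 3 days it read 6.37 in line 17, 5.25 in line 9 and 5.73 in line 20 with the inducer, and 4.13 in line 17, 3.58 in line 9 and 4.80 in line 20 without it. Within each pair the induced array was the higher one, a pattern that 11.6% of all probe sets tested share and that the choice of the gene required. Across the lines the treatments did overlap, because the induced array of line 20 at 6 days (4.74) lay under its non-induced array at 3 days (4.80).

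Non-induced arrays of lines 17 and 9 at 6 days and of line 9 at 3 days were dim for SWEET10, so its changes there have a dim starting level. Its mean was 5.71 ± 0.95 (SD, n = 3) with the inducer and 3.91 ± 0.64 without it at 6 days, and 5.78 ± 0.56 with it and 4.17 ± 0.61 without it at 3 days. The difference over both days was 1.71 ± 0.36 (SE, log2), or 3.26-fold, with 1.80 ± 0.51 at 6 days and 1.61 ± 0.51 at 3 days. With all dim values set to 4 it was 1.48 ± 0.32 over both days.

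**Figure D1:**
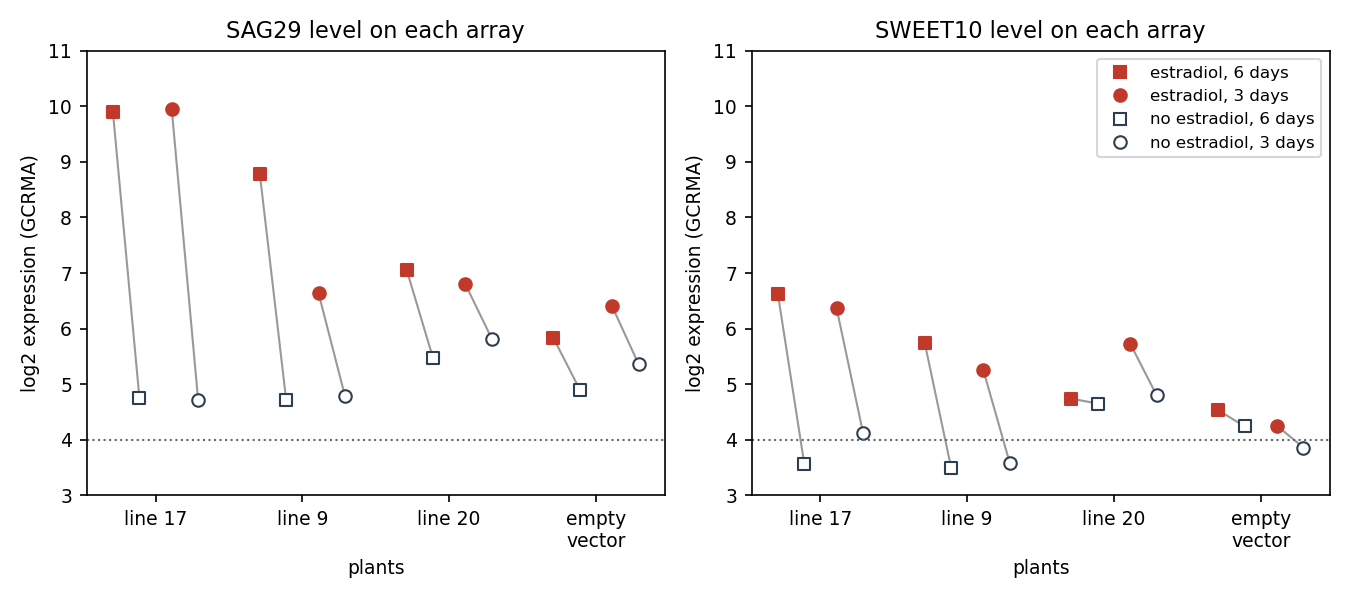
Log2 expression of SAG29 (left) and SWEET10 (right) on each of the 16 arrays, by plants, with the 6 day pair to the left of the 3 day pair. Filled red points are induced arrays, open points non-induced ones, lines join a pair, and the dotted line is the log2 value of 4 under which a value is dim; the induced points of line 17 reach 9.96 for SAG29 and 6.63 for SWEET10, and those of line 20 and the empty vector stay at or under 7.06 for SAG29.

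The order of the SAG29 levels across the 8 conditions was induced lines at 6 days (8.58) and 3 days (7.80), induced empty vector at 3 days (6.40) and 6 days (5.83), non-induced empty vector at 3 days (5.36), non-induced lines at 3 days (5.11) and 6 days (4.98) and non-induced empty vector at 6 days (4.90). The induced lines at 6 and at 3 days differed by less than the SD of either, and the induced lines at 3 days exceeded the induced empty vector by 1.40, less than their SD of 1.87. The 4 non-induced conditions, from 4.90 to 5.36, spanned less than the SD of the non-induced lines at 3 days. For SWEET10 the order was induced lines at 3 days (5.78) and 6 days (5.71), induced empty vector at 6 days (4.53) and 3 days (4.25), non-induced empty vector at 6 days (4.24), non-induced lines at 3 days (4.17) and 6 days (3.91) and non-induced empty vector at 3 days (3.86). Among the conditions other than the induced lines, neighbours in this order were closer than the SDs of 0.61 and 0.64 of the non-induced lines. The induced lines at either day stood above every empty-vector array for both genes, line by line, with means 2.75 (6 days) and 1.40 (3 days) above the induced empty vector for SAG29 and 1.18 and 1.53 above it for SWEET10. The closest were line 9 at 3 days for SAG29 (6.64 against 6.40) and line 20 at 6 days for SWEET10 (4.74 against 4.53). Both genes were picked on their change in the induced lines. The share of all probe sets with this order was not counted, so nothing is read from it.

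The lines differed in the size of the change, in the same order for both genes. SAG29 changed by 5.13 (6 days) and 5.24 (3 days) in line 17, by 4.08 and 1.85 in line 9 and by 1.59 and 0.98 in line 20. On a linear scale these are 35.0-fold and 37.8-fold in line 17, 16.9-fold and 3.61-fold in line 9 and 3.01-fold and 1.97-fold in line 20. SWEET10 changed by 3.06 (6 days) and 2.24 (3 days) in line 17, by 2.25 and 1.67 in line 9 and by 0.09 and 0.93 in line 20. Ranked by change among the 13701 probe sets, SAG29 stood 5th at each day in line 17. It stood 18th (6 days) and 162nd (3 days) in line 9, and 58th and 102nd in line 20. In the empty vector SAG29 stood 79th and 32nd. SWEET10 stood 32nd and 37th in line 17, 162nd and 270th in line 9, and 5124th and 123rd in line 20. In the empty vector SWEET10 stood 2242nd and 817th. Both genes were picked on their change in the lines, so nothing is read from their ranks there.

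**Figure D2:**
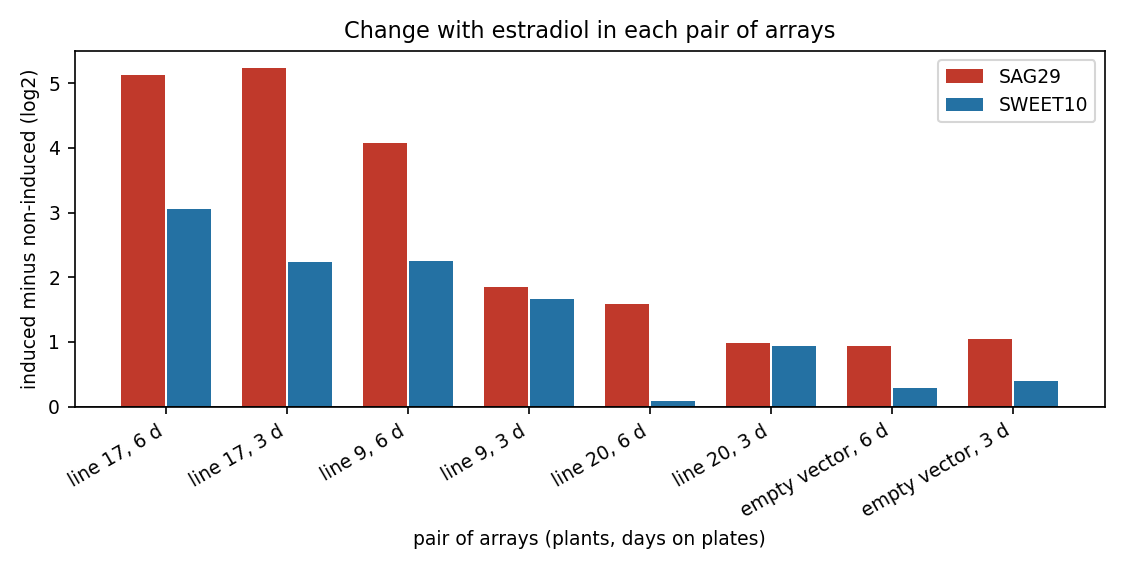
Induced minus non-induced log2 expression of SAG29 (red) and SWEET10 (blue) in each of the 8 pairs of arrays, 1 bar per pair. Line 17 has the tallest SAG29 bars (5.13 and 5.24), and the SAG29 bars of line 20 (1.59 and 0.98) are nearest in height to those of the empty vector (0.93 and 1.04).

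How far the change differed between lines is another contrast than the mean change that ranked the genes. The requirement that all 6 pairs be higher did use the same pair changes, so these tests are not fully independent of the choice of the genes. The mean changes of SAG29 were 5.19 in line 17, 2.97 in line 9 and 1.29 in line 20, a spread of 3.90, and those of SWEET10 were 2.65, 1.96 and 0.51, a spread of 2.14. With the days as repeats on the 12 amiR-tor arrays, the limma F test of line differences gave adjusted p = 0.105 for SAG29 and 0.115 for SWEET10, and 0% of all probe sets passed, with 2722 at an unadjusted p under 0.05. In the arrays of lines 17 and 20 alone, where no pair mixes the 2 kinds of array, SAG29 changed more in line 17 than in line 20 by 3.90 ± 0.24 (SE; limma adjusted p = 0.0213). It was 1 of 2 probe sets to pass there (0.0146% of those tested; 794 had an unadjusted p under 0.05). The other, named after its values were seen, was LEA4-5 (AT5G06760), a late embryogenesis abundant protein gene, at 3.39. SWEET10 differed between these lines by 2.14 ± 0.41 (limma adjusted p = 0.555). At 3 days the actin difference was -8.58 induced and -4.47 non-induced in line 17, and -4.52 and -4.65 in line 20. Its part in the line differences was not tested. Across all 12 arrays the same SAG29 difference was equal in size but wider in SE, at 3.90 ± 0.75 (limma adjusted p = 1). Its call therefore rests on leaving out line 9, and the test of lines 17 and 20 alone has 3 residual degrees of freedom.

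The kind of array moved with the inducer only in line 9, where the actin difference was -6.23 on the induced and -1.43 on the non-induced array at 6 days, and -10.39 and -1.86 at 3 days. In line 17 at 6 days both arrays were of the high 25S kind (11.54 induced, 11.38 non-induced), with actin differences of -1.84 and -1.82, and SAG29 differed by 5.13 and SWEET10 by 3.06. In line 17 at 3 days the actin difference was -8.58 on the induced and -4.47 on the non-induced array, and its part in the changes of that pair was not tested. Within the high 25S kind (6 days, lines 17 and 20) the mean change was 3.36 ± 2.50 (SD, n = 2) for SAG29 and 1.58 ± 2.10 for SWEET10, and within the low kind (3 days, lines 17 and 20) it was 3.11 ± 3.01 and 1.59 ± 0.93.

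Estradiol without the microRNA was measured in the empty vector, on arrays outside the contrast that chose the genes. SAG29 read 5.83 with estradiol and 4.90 without it at 6 days, and 6.40 with estradiol and 5.36 without it at 3 days. It was thus higher by 0.93 and 1.04, against 1.59 and 0.98 in line 20. Both induced empty-vector arrays lay above both non-induced ones. How many of all probe sets share that order was not counted, so nothing is read from it. The change over both days was 0.99 ± 1.07 (SE, log2; limma adjusted p = 1; 95% interval -1.38 to 3.35), and 0% of all probe sets passed, with 111 at an unadjusted p under 0.05. With 1 array per condition the spread was taken from the amiR-tor arrays, which differed among themselves in line and in kind of array.

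Few probe sets had a change of that size in both empty-vector pairs. Besides SAG29, 3 others had a change of at least 0.93 in each pair, which with SAG29 makes 4, or 0.0292% of those tested. They were AT5G59845 (3.19 at 6 days, 2.30 at 3 days), AT3G51280 (1.25 and 1) and a probe set with no gene name here (1.27 and 0.93). The bound was set at the lower of the SAG29 values, so the count is a description. The change of SAG29 in the lines over both days exceeded that in the empty vector by 2.16 ± 1.24 (SE), given without a test because it holds the contrast on which the gene was picked.

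SWEET10 read 4.53 with estradiol and 4.24 without it at 6 days in the empty vector, and 4.25 and 3.86 at 3 days. The induced array at 3 days (4.25) and the non-induced array at 6 days (4.24) were nearly equal. Its change over both days was 0.34 ± 0.62 (SE, log2; limma adjusted p = 1; 95% interval -1.03 to 1.71). In the lines the change over both days exceeded that in the empty vector by 1.37 ± 0.72 (SE), again without a test. In the empty vector 16.4% of all probe sets had a larger change than SWEET10 at 6 days and 5.96% at 3 days.

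The day of harvest gave no call for either gene. In lines 17 and 20 every 3 day array was of the low 25S kind and every 6 day array of the high kind. Day and kind of array therefore cannot be told apart in these lines. The day difference in induction also uses the pair changes that chose the genes, so it is not fully independent of that choice. Induction at 6 days minus induction at 3 days was 0.91 ± 1.24 (SE, log2; limma adjusted p = 1; 95% interval -1.82 to 3.64) for SAG29 and 0.19 ± 0.72 (limma adjusted p = 1; -1.40 to 1.77) for SWEET10. By line the SAG29 change differed by day mostly in line 9 (4.08 at 6 days, 1.85 at 3 days). In non-induced lines the 6 day minus 3 day difference was -0.13 ± 0.87 (limma adjusted p = 0.979) for SAG29 and -0.26 ± 0.51 (limma adjusted p = 0.91) for SWEET10. In both comparisons 0% of the probe sets passed, with 234 and 928 at an unadjusted p under 0.05.

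Among the other 15 SWEET loci, 14 had a probe set, and 6 of these passed the filter on dim values. SWEET12, a sucrose carrier of the phloem parenchyma, was not listed and was not analysed here. SWEET4 passed it through induced arrays alone and is described without a test. Of the other 5, 0 passed the test of induction over both days (limma), against 2.85% of all probe sets. An unadjusted p under 0.05 was found for 2 of them, SWEET1 and SWEET16, and for 3621 (26.4%) of all probe sets. The median of the 5 was -0.09, against 0.03 over all probe sets.

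SWEET4, a hexose carrier of the plasma membrane, had the pattern nearest to the 2 genes within the family. It read 4.75 in line 17, 5.29 in line 9 and 2.79 in line 20 after 6 days with the inducer, and 2.79, 2.75 and 2.88 in the same lines without it. After 3 days it read 5.53, 2.94 and 3.16 with the inducer and 2.59, 2.76 and 2.79 without it. Only 3 arrays, all induced, reached 4 for SWEET4. The difference over both days was 1.32 ± 0.49 (SE), and 0.60 ± 0.28 with dim values set to 4.

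SWEET1, a glucose carrier, had a difference of 0.71 ± 0.29 (SE; limma adjusted p = 0.165). It changed by 1.42 and 1.98 in line 9 at 6 and 3 days, by 0.12 and 0.05 in line 17 and by 0.33 at each day in line 20, against 0.76 and 0.20 in the empty vector. Without line 9, whose pairs also change the kind of array, the difference was 0.21 ± 0.18 (limma adjusted p = 0.593).

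SWEET11, the partner of SWEET12 in phloem loading and a member of the same clade as SAG29, read between 10.67 and 11.59 on the 16 arrays and differed by 0.24 ± 0.12 (SE; limma adjusted p = 0.208). The vacuolar fructose carriers SWEET16 and SWEET17 had values of -0.30 ± 0.13 (limma adjusted p = 0.185) and -0.09 ± 0.15 (limma adjusted p = 0.727). SWEET2, a vacuolar carrier of glucose, had -0.13 ± 0.20 (limma adjusted p = 0.717). In the empty vector 0 of the 5 other than SWEET4 passed in limma, against 0% of all probe sets. None of the 5 had an unadjusted p under 0.05, against 0.81% of all probe sets. SWEET4 was dim on every empty-vector array and is left out of this count.

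The other 8 SWEET probe sets were left out as dim. AtVEX1 (SWEET5), SWEET6, SWEET7, SWEET8, SWEET9, SWEET14 and SWEET3 stayed at or under 2.26 on all arrays. Several of these are known from flowers, such as SWEET9 in nectaries and SWEET8 and AtVEX1 in anthers and pollen. SWEET13, of the SAG29 clade, reached 4.11 on 1 array, induced line 9 at 6 days, and 2.12 to 2.95 on the other 15.

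**Figure D3:**
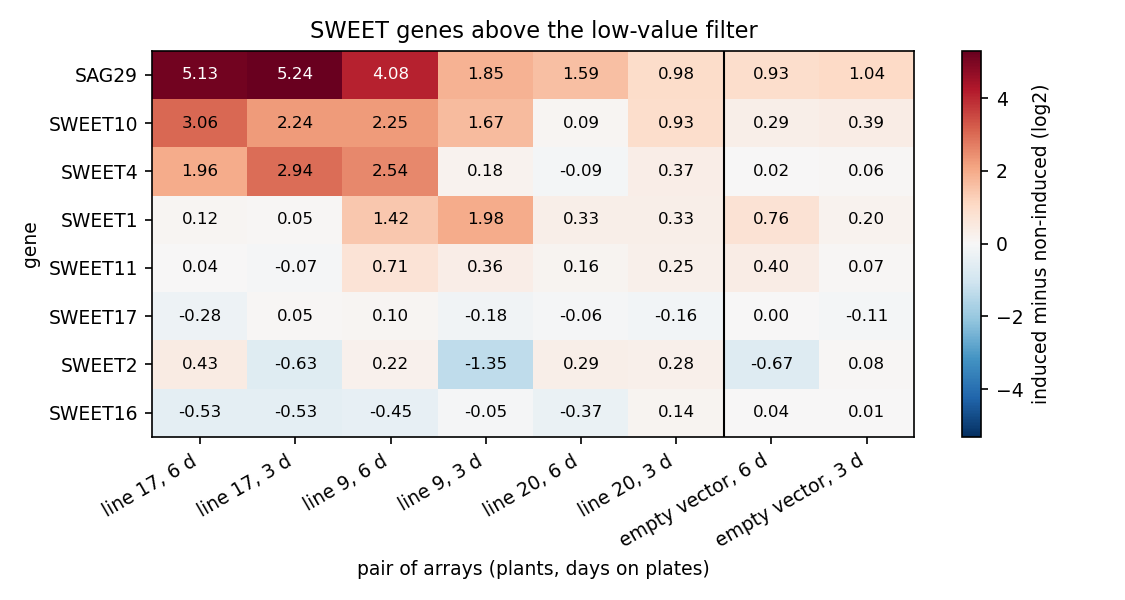
Induced minus non-induced log2 expression of the 8 SWEET genes that passed the filter on dim values, in each pair of arrays, ordered by the change over both days in the lines. Red is higher and blue lower with estradiol, and the vertical line sets off the 2 empty-vector pairs; large values of SAG29, SWEET10 and SWEET4 stand in lines 17 and 9, while SWEET1 has its largest values in line 9 (1.42 and 1.98).

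Other genes of sugar movement and use were mostly outside the names available. Of 28 further sugar transporter loci 5 were named and above the filter, and none passed for induction over both days (limma; 1 had an unadjusted p under 0.05, against 26.4% of all probe sets), with a median of -0.17. The lowest of them was the hexose importer STP3 (AT5G61520) at -0.76 ± 0.25 (SE; limma adjusted p = 0.104). It was lower with the inducer in all 6 pairs, most in line 9 at 3 days (-2.34), where the kind of array changed too. SFP2 (AT5G27360), of the ERD6-like sugar carriers, had -0.31 ± 0.17 (limma adjusted p = 0.262). Of 21 loci of sucrose and hexose metabolism 2 were measured, and neither passed (limma; 1 had an unadjusted p under 0.05, against the same 26.4%). They were the sucrose phosphate synthase ATSPS4F, at 0.60 ± 0.23 (limma adjusted p = 0.138), and the vacuolar invertase gene AT1G62660, at 0.14 ± 0.14 (limma adjusted p = 0.531).

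The processes in which SAG29 is known were set beside it in the same way. Besides SAG29, 4 of 25 leaf senescence loci were measured, and none passed, against 2.85% of all probe sets (limma). Of the 4, 0 had an unadjusted p under 0.05, against 26.4% of all probe sets. With so few genes nothing is read from these counts. All 4 were named after their values were seen. SAG101, a lipase-like defence and senescence gene, had a value of 0.34 ± 0.17, the transcription factor gene WRKY6 0.32 ± 0.27, PPDK, a pyruvate orthophosphate dikinase of nitrogen export, 0.30 ± 0.17, and the transcription factor gene WRKY53 -0.22 ± 0.27 (SE, log2). Of 21 loci of the abscisic acid and salt response 3 were measured, and none passed (limma; 2 had an unadjusted p under 0.05, against 26.4% of all probe sets). COR15A, a chloroplast protectant protein of cold and drought, had 1.62 ± 0.41 (limma adjusted p = 0.0573) and the dehydrin LTI30 0.55 ± 0.18 (limma adjusted p = 0.109). COR15A changed by 2.39 (6 days) and 2.90 (3 days) in line 17, by 3.09 and 0.99 in line 9 and by 0.69 and -0.32 in line 20, against -0.19 and -0.24 in the empty vector. The flowering gene GI differed by 0.09 ± 0.20 (limma adjusted p = 0.808); FT was not named and was not analysed here.

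The named genes most like each of the 2 were found by Pearson correlation of log2 values over the 16 arrays, among 1065 named probe sets above the filter. These values share the treatment, the line and the kind of array, so r describes the arrays and carries no test. For SAG29 they were APL3 (r = 0.948), a large subunit of the starch enzyme ADP-glucose pyrophosphorylase, SWEET10 (0.924), QPT (0.923), a quinolinate phosphoribosyltransferase of NAD synthesis, CYP71B28 (0.919), a cytochrome P450 gene, and SWEET4 (0.902). For SWEET10 they were SAG29 (0.924), APL3 (0.905), NET1D (0.891), an actin-binding protein gene, CYP71B28 (0.883) and SGP1 (0.87), a small GTPase gene.

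APL3 had the same order of lines as SAG29. It changed by 3.64 (6 days) and 2.53 (3 days) in line 17, by 3.17 and 1.39 in line 9 and by 0.95 and 0.51 in line 20, against 0.59 and 0.38 in the empty vector. QPT changed far less, by 0.31 and 0.72 in line 17 and by 0.09 and 0.00 in line 20, so a high r does not mean a like size. NET1D and SGP1 changed most in line 9 at 6 days, by 1.28 and 1.85, where the kind of array changed too.

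**Figure D4:**
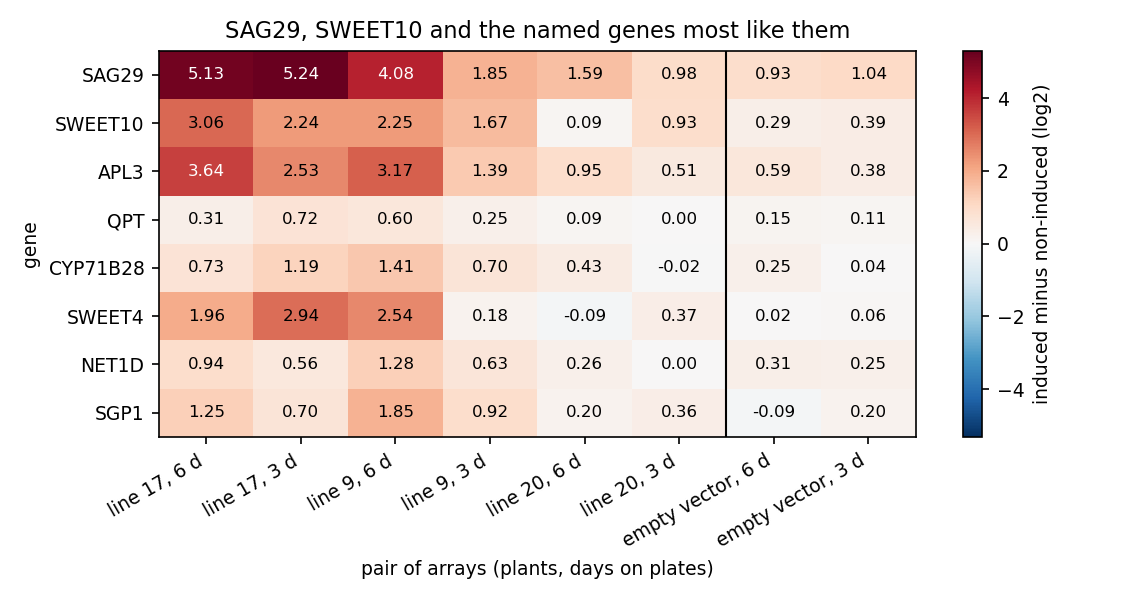
Induced minus non-induced log2 expression, in each pair of arrays, of SAG29, SWEET10 and the 6 other named genes whose levels over the 16 arrays correlated most with either. Colours are as for the SWEET genes, and the vertical line sets off the empty vector; SAG29 and APL3 have the largest values, and line 20 and the empty vector are pale for most genes.

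For scale, the named genes nearest to the threshold on which SAG29 and SWEET10 were picked were SDRB (AT3G12800), just inside at 0.67 ± 0.16 (SE, log2), and OCT5 (AT1G79410), just outside at 1.02 ± 0.24. By unadjusted p over both days SAG29 was 180th and SWEET10 237th of the 13701 probe sets.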

How the data were processed

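Per the submitters' processing notes the authors used GCRMA, which gave the deposited log2 values. No version or settings of it are stated in the labels. GCRMA lowers dim values towards a common floor, which compresses differences between dim levels. The names listed 13513 of 22746 gene probe sets with 1 gene, 503 with several and 8730 not at all; current symbols came from RefSeq genes of TAIR10.1, and coordinates are left out, since no build is named for the array.

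Of all probe sets, 13701 reached a log2 value of 4 on at least 3 arrays and were kept. All 16 arrays were fitted across all genes with limma 3.58.1 in R 4.3.3 (1 mean per group, 8 residual degrees of freedom), with Benjamini-Hochberg adjustment and a threshold of 0.05. Line differences were fitted on the 12 amiR-tor arrays with the day as a term. The fits were tested on simulated data with independent noise. That noise held no correlation between arrays of a line and no effect of the kind of array, so the simulation does not cover either.

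The 2 genes and the gene lists were chosen with earlier results of these data known. Named were the 2 genes, every SWEET locus with a probe set, in each other list up to 4 genes past the threshold or, with none past it, the 2 with the smallest p (the 4 senescence genes beside SAG29 are outside this rule), and the 5 named genes most correlated with each of the 2. Same-line arrays come from the same line by label, which pairs them; their deviations from group means correlated between -0.63 and 0.52. Alternatives changed the filter, normalization, floor, line block, kind of array and lines. No sequences were used here.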

Additional observations from a re-analysis of the deposited data

Results flagged for a closer look

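In the arrays of lines 17 and 20 alone, the change of SAG29 with the inducer was larger in line 17 than in line 20 by 3.90 on the log2 scale (limma adjusted p = 0.0213), a difference between groups under the same contrast. It was 5.13 and 5.24 in line 17 against 1.59 and 0.98 in line 20 at 6 and 3 days. Over all 12 amiR-tor arrays the same difference had a limma adjusted p of 1 and the F test of line differences one of 0.105, so the call is present only with line 9 left out. The test of lines 17 and 20 alone takes the days of a line as repeats and has 3 residual degrees of freedom. It uses pair changes that the choice of SAG29 also used, so it is not fully independent of that choice. The degree of TOR silencing in either line was not analysed here.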

How the results depend on the processing

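Over the alternatives run, the change over both days was 2.13 to 4.08 for SAG29 and 1.24 to 2.31 for SWEET10. Leaving out a line gave both ends (lowest without line 17, highest without line 20). Both genes were picked as higher in all 6 pairs, so a kept sign with a line left out follows from that choice. With the replicate block the change was 3.15 ± 0.59 (SE) and 1.71 ± 0.35, and the block moved no call of the 2 genes. Other settings widened the SEs, which were 0.62 for SAG29 and 0.36 for SWEET10 in the main fit. Averaging both days within each line before the fit gave 3.15 ± 0.74 for SAG29 and 1.71 ± 0.42 for SWEET10. Adjusting for the kind of array by its 25S class gave 3.01 ± 0.71 and 1.55 ± 0.40. Neither gene was called under either of these settings. SWEET10 was lost under the filter at log2 6. The 10 high 25S arrays hold no induced amiR-tor array of 3 days, so changes over both days and between days could not be fitted there. The 6 day minus 3 day difference of non-induced lines turned from negative to 0.135 for SAG29 and 0.053 for SWEET10 with the 25S class as a covariate, and to 0.19 and 0.33 on the high 25S arrays, none past the threshold. The day difference of SWEET10 induction was -0.13 to 0.70 with 1 line left out. The spread of SAG29 between lines was 1.68 to 3.90 with 1 line left out, past the threshold without line 9. Of the 8 SWEET probe sets above the filter 2, SAG29 and SWEET10, were called over both days, against 2.85% of all probe sets. Both were picked for that call, so the count only shows how the call depends on the settings. The count was 0 without a filter, 1 with the filter at log2 6, 0 with the 25S class and 0 with the 2 days of a line averaged first. With 1 line left out it was 0 to 2 (0 without line 9, 0 without line 17). Over all probe sets the count was 390, against 88 without a filter, 61 with the 25S class, 6 with averaged days, 571 with the replicate block (347 of them among the 390) and 1 to 379 with 1 line left out (6 without line 9, 1 without line 17). The number of arrays limits the precision, above all in the empty vector.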

Other observations

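SWEET10 and SWEET13 are neighbours on chromosome 5 with no gene listed between them in the RefSeq table. SWEET13 stayed dim on all arrays but induced line 9 at 6 days. The gene on the other side of SWEET10, AT5G50780, read 4.13 to 5.65 over the 16 arrays and differed by 0.39 ± 0.16 (SE, log2) with the inducer over both days in the lines. The neighbours of SAG29, PBS1 and a long non-coding RNA, had no listed probe set and were not analysed here.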
